A study of Mus musculus with 2 samples.

Results

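Expression of 8 Kruppel-like factor (KLF) genes was examined in macrophages given an siRNA to HDAC9. They were taken by gene symbol, as Klf2, Klf3, Klf4, Klf6, Klf7, Klf9, Klf10 and Klf13, read by 30 probe sets of the 45037 in the table. All 8 genes were among the 18193 genes with probe sets naming 1 gene. No probe set naming several genes included a member.

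KLF proteins are transcription factors that bind GC-rich and CACCC-type DNA elements through C-terminal zinc fingers. They fall into subgroups by what they recruit: KLF2, KLF4, KLF6 and KLF7 act mainly as activators with histone acetyltransferases, KLF3 represses through CtBP corepressors, and KLF9, KLF10 and KLF13 can repress through the corepressor Sin3A. In macrophages KLF2 and KLF4 are best known as brakes on inflammatory gene expression, while KLF6 has been described as promoting it.

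Expression was measured on 2 Affymetrix arrays of peritoneal macrophages from male C57BL/6 mice. The cells had been transfected 48 h earlier with HDAC9 siRNA (1 array; HDAC9 is one of the class IIa histone deacetylases) or with a control siRNA (1 array). The question was which genes differ when HDAC9 is knocked down. The labels do not say whether cells of several mice were pooled.

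A single array per condition leaves the variation between cultures unmeasured, so no test was made, and every value describes a difference between 2 arrays. Values are the authors' log2 signals. A signal counted as above background when it exceeded 6.34 on the log2 scale, the 95th percentile of 80 probe sets for olfactory and vomeronasal receptors. Lower signals were raised to that floor before differences (HDAC9 siRNA minus control siRNA) were taken, so a difference is a bound where one of its signals lay at the floor. Each gene was represented by its brightest probe set. The only internal measure of scatter was that between the 2 brightest probe sets of a gene, a standard deviation of 0.29 log2 over 5671 genes. It leaves out differences between cultures. Signals of different probe sets depend on the probes, so the members were not ranked by level.

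The 2 arrays had the same overall scale, with a trimmed mean linear signal of 497 on each, and 53.6% of probe sets were above background on the HDAC9 siRNA array against 51.4% on the control array. The siRNA target, Hdac9, was near background, at 5.69 on the HDAC9 siRNA array and 6.88 on the control array by probe set 1434572_at, which makes it at least 1.46-fold lower. Its other probe set was below background on both arrays. All 6 macrophage markers examined were above background, including Adgre1 (12.7 on both arrays) and Csf1r (13.7 on the HDAC9 siRNA array, 13.9 on the control array), and of 3 markers of large peritoneal macrophages Gata6 and Icam2 were above background and Timd4 was not. Fibroblast genes were also present. The summed linear signal of 5 markers was 51240 on the HDAC9 siRNA array and 38042 on the control array. Of these, Col1a1 and Col3a1 were past 2-fold higher, Col1a2 was at 0.43, Dcn at 0.13 and Pdgfra at -0.10. For Pdgfra 2 of 3 probe sets were higher. Of 5 endothelial markers, the cells in which KLF2 and KLF4 are most studied, Kdr and Vwf were above background and Pecam1, Cdh5 and Tek were not, with a summed signal of 722 on the HDAC9 siRNA array and 572 on the control array. The mesothelial markers Msln, Krt19, Upk3b and Wt1 summed to 8432 on the HDAC9 siRNA array and 7129 on the control array. Upk3b (0.24) and Wt1 (0.44) were higher, and Krt19 (-0.18) and Msln were lower. Msln passed 2-fold, but its 6.39 on the HDAC9 siRNA array lay close to the floor, against 7.49 on the control array. The marker sums here used the deposited signals without the floor. Of 5 T cell markers, Cd3d, Cd3e and Cd3g were below background on both arrays, Thy1 read 7.03 on the HDAC9 siRNA array and 7.74 on the control array, and Cd8a was above background on the control array alone, at 7.13; their sum was 244 on the HDAC9 siRNA array and 400 on the control array. The B cell genes Cd79a, Cd79b and Ms4a1 were below background on both arrays. Of 3 neutrophil markers, S100a8 (8.91 on the HDAC9 siRNA array, 9.13 on the control array) and Csf3r (8.76 and 8.31) were above background and S100a9 was not, with a sum of 940 on the HDAC9 siRNA array and 880 on the control array. The part of these other cells in the KLF values was not tested, and in such a mixture fewer cells of a type and less RNA per cell cannot be told apart.

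Class IIa deacetylases act on genes largely by binding MEF2 transcription factors, and Klf2 is a known MEF2 target in endothelial cells, so the promoters of the members were searched for the MEF2 consensus and for the family's own elements. RefSeq promoter windows (assembly GRCm38.p6) were matched for 7 of the 8 members, Klf10 being the one without an entry. Each window ends at the start that table gives, which for Klf7 lies inside the gene's RefSeq span (chr1:64029448-64122345) and for the other 6 is the end of the span. In the 250 bases before that start, on either strand, the MEF2 consensus was found in 1 of the 7, Klf2. It lay 118 to 109 bases upstream of the start. Of 32817 promoter windows of this length in the table, 2.92% held the motif. It is shown in capitals with 10 bases on each side (chr8:72318934-72318963, plus strand):
Klf2 MEF2 match: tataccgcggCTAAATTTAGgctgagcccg

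The windows of 4 members are printed next because they show the activator subgroup whole, namely Klf2 and Klf4, the pair known from MEF2 signalling, and Klf6 and Klf7, in which every probe set was lower on the HDAC9 siRNA array. Capitals mark CACCC or GGGCGG on either strand, the CACCC box and the GC box to which KLF and SP factors bind. The windows are chr8:72318812-72319061 (plus strand) for Klf2, chr4:55532476-55532725 (minus) for Klf4, chr13:5861239-5861488 (plus) for Klf6 and chr1:64121390-64121639 (minus) for Klf7, each read 5′ to 3′ along the gene.
Klf2: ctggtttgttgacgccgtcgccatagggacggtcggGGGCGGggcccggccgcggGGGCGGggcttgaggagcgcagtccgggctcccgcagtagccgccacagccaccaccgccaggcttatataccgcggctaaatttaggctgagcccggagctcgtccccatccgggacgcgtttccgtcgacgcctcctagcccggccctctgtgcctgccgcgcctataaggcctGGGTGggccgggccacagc
Klf4: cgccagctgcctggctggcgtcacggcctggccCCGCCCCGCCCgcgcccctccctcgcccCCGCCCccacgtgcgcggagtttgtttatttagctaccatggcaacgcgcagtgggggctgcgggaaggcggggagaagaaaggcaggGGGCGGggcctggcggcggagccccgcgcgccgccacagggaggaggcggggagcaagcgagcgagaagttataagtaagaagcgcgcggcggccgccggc
Klf6: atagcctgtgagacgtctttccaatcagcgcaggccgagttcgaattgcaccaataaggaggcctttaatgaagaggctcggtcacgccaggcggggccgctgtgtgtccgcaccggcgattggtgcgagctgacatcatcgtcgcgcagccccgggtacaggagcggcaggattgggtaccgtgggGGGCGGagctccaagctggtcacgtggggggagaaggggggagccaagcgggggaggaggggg
Klf7: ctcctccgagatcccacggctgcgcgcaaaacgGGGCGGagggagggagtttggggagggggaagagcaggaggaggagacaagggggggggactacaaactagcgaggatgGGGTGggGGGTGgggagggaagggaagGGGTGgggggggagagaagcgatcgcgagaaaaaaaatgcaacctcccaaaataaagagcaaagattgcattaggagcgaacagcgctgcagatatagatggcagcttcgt

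Klf2 held 1 CACCC box and 2 GC boxes, Klf4 held 4 GC boxes, a pair of which overlap by a base, Klf6 held 1 GC box, and Klf7 held 3 CACCC boxes and 1 GC box. Among the repressors, Klf3 had 5 CACCC boxes and 6 GC boxes, with 1 overlap of a base between the kinds, Klf13 had 1 and 3, which overlap once, and Klf9 had 1 CACCC box. These elements are common: 52% of all windows held CACCC, 32.7% held GGGCGG and 64.6% held at least one of them. The members' windows were rich in G and C, from 59.2% in Klf7 to 78.4% in Klf3, against a median of 52.4% over all windows. A match describes letters in the window and not binding.

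The 8 KLF genes differed little between the arrays. Each was above background on both arrays by its brightest probe set. Of the 8, 0 were 2-fold higher or lower and 0 passed 1.5-fold, while over all 12090 genes above background 1.81% passed 2-fold and 10.6% passed 1.5-fold. A count of 0 among 8 is near these background shares. Of the 28 KLF probe sets above background, 0 passed 2-fold, against 1.95% of all 21955 such probe sets. The KLF differences ran from -0.36 for Klf10 to 0.21 for Klf4, with 4 genes higher (54.1% of all genes were) and 4 lower and a median of -0.02. The median over all genes above background was 0.03, with 5th and 95th percentiles of -0.46 and 0.71. Klf7 and Klf10 were the lowest, at percentiles 8.59 and 8.49 of all genes, whose quartiles were -0.15 and 0.25.

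**Figure D1:**
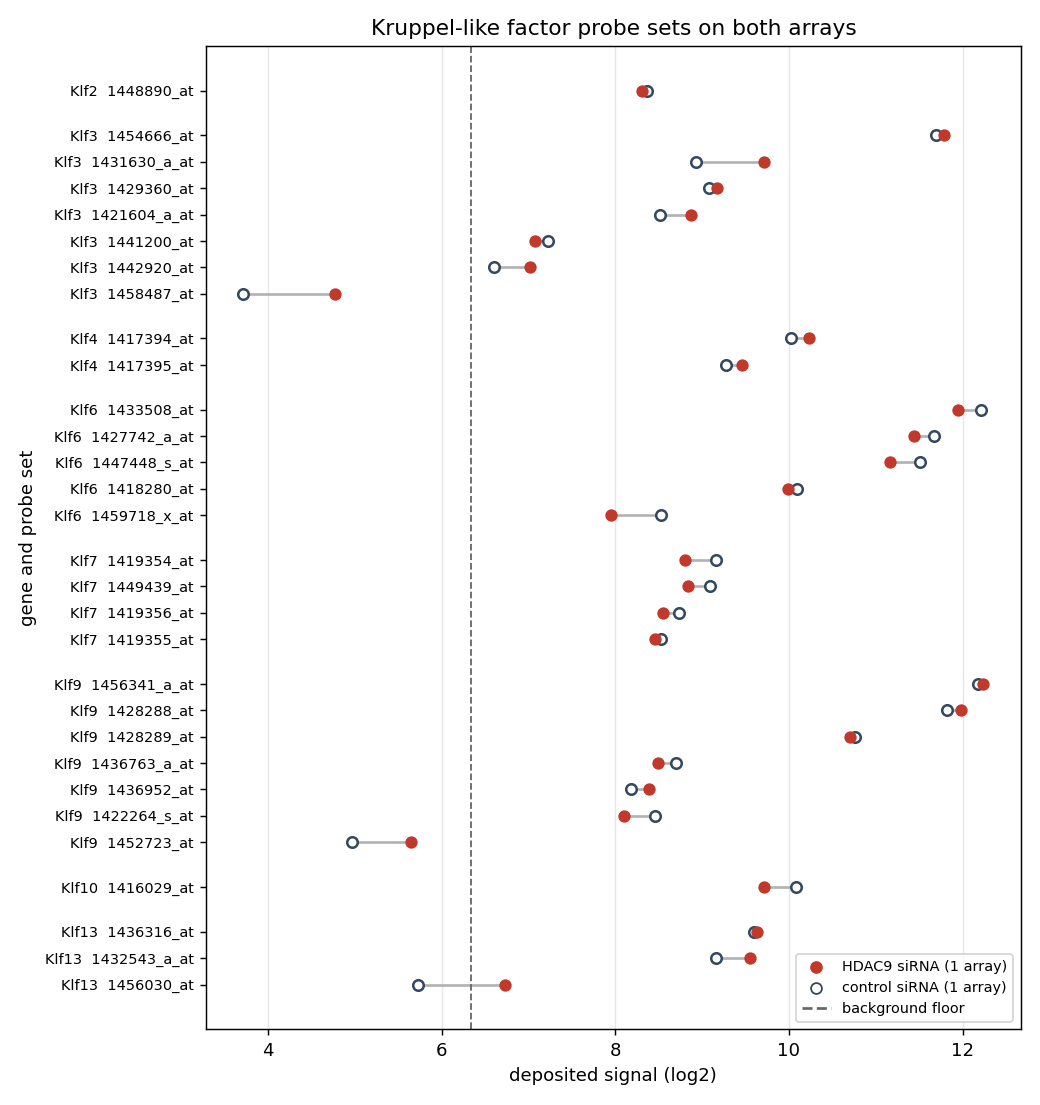
Deposited log2 signal (x axis) of the 30 KLF probe sets (y axis, grouped by gene and ordered by signal) on the HDAC9 siRNA array (filled) and the control siRNA array (open); the dashed line is the background floor at 6.34. The 5 probe sets of Klf6 and the 4 of Klf7 lie to the left on the HDAC9 siRNA array, and those of Klf3 and Klf9 lie on both sides.

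Of the activators, Klf2 was nearly the same on both arrays. Its 1 probe set, 1448890_at, read 8.31 on the HDAC9 siRNA array and 8.37 on the control array, a difference of -0.06 at percentile 37.0 of all genes above background. That difference was 0.201 times the probe-set scatter. The promoter window of Klf2 held the MEF2 match, and a role of MEF2 at Klf2 in these cells was not tested.

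Klf4, which takes part in alternative macrophage activation and in reprogramming to pluripotency, was the member with the highest difference by the brightest probe set. By the median over probe sets, Klf13 (0.39) and Klf3 (0.23) were above Klf4 (0.19). Probe set 1417394_at read 10.24 on the HDAC9 siRNA array and 10.03 on the control array. The second, 1417395_at, read 9.46 and 9.28 on the same arrays. Both were higher, by 0.21 and 0.18, each smaller than the scatter of 0.29. They were designed from the same sequence accession, so they are not separate views of the transcript. At percentile 71.1 of all genes, Klf4 stood inside the middle of the distribution.

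Klf6, an early-response factor that is induced in activated macrophages, was lower by all 5 of its probe sets. The brightest, 1433508_at, read 11.95 on the HDAC9 siRNA array and 12.21 on the control array, a difference of -0.27. Probe set 1427742_a_at read 11.44 and 11.67, and 1447448_s_at read 11.17 and 11.51, in the same order of arrays. The differences of these 3 were therefore close to each other, from -0.23 to -0.34. The other 2 set the ends of the range: 1418280_at read 9.99 on the HDAC9 siRNA array and 10.10 on the control array (-0.11), and 1459718_x_at read 7.96 and 8.52 (-0.57). The last and 1447448_s_at share a sequence accession. Their _x_at and _s_at names mark probes that can match more than 1 transcript. Without them the range was -0.27 to -0.11.

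Klf7, known from the development of sensory neurons and from fat tissue, was lower by all 4 of its probe sets. Probe set 1419354_at read 8.80 on the HDAC9 siRNA array and 9.16 on the control array, and 1449439_at read 8.83 and 9.09. For 1419356_at the signals were 8.55 on the HDAC9 siRNA array and 8.74 on the control array, and for 1419355_at they were 8.46 and 8.52. The differences were -0.36, -0.26, -0.19 and -0.07, so 1 of 4 was larger than the scatter. All 4 share 1 sequence accession.

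Agreement of this kind was not rare. Of 1027 genes with 4 or more probe sets above background, 9.64% had all of them lower and 12.4% all higher. Among the 4 KLF genes with that many, Klf6 and Klf7 had all lower, while Klf3 and Klf9 had probe sets on both sides. Probe sets of a gene read the same RNA on the same arrays, so their agreement says nothing about other cultures. The direction of Klf6 and Klf7 was the same in every probe set after quantile normalization and loess on signal. Centring subtracts a positive median, so it could not turn a lower probe set.

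**Figure D2:**
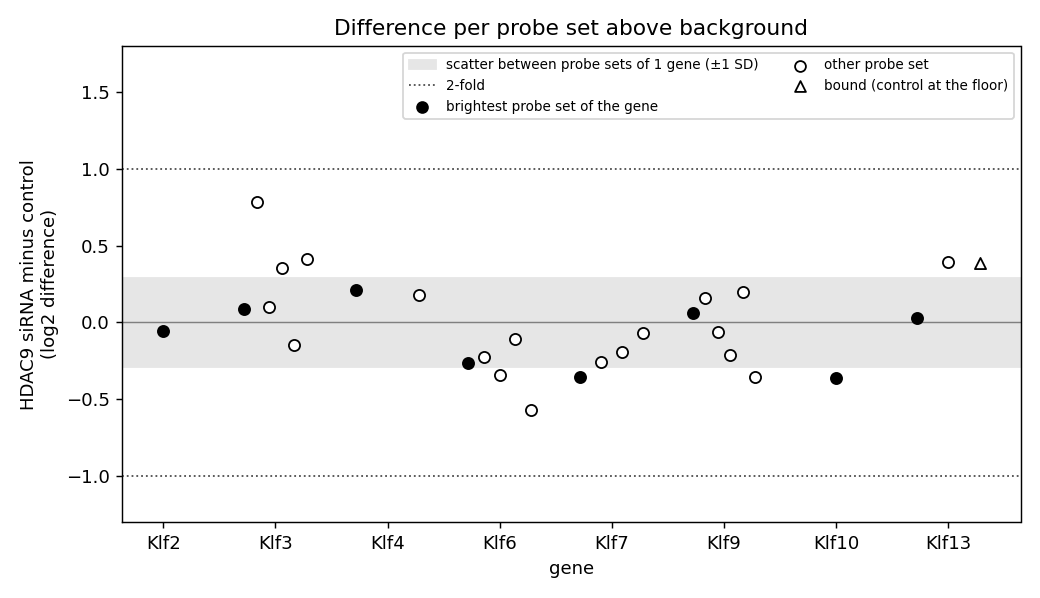
Log2 difference (HDAC9 siRNA minus control, y axis) of the 28 KLF probe sets above background, by gene (x axis); filled points are the brightest probe set of each gene, the triangle is a bound, the band is ±0.29 and dotted lines mark 2-fold. No point passes 2-fold, and the highest, at 0.78, is 1 of 6 for Klf3.

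Of the repressors, Klf3 gave different values by different probe sets. The brightest, 1454666_at, read 11.78 on the HDAC9 siRNA array and 11.69 on the control array, a difference of 0.09. Probe set 1431630_a_at read 9.71 on the HDAC9 siRNA array and 8.93 on the control array. Its difference of 0.78 (1.72-fold) was the largest of any KLF probe set and the only one past 1.5-fold, against 11.6% of the 21955 probe sets above background. Of the other 4 above background, 1442920_at (7.02 on the HDAC9 siRNA array, 6.60 on the control array), 1421604_a_at (8.87 and 8.52) and 1429360_at (9.17 and 9.08) were higher. The remaining one, 1441200_at, was lower, at 7.08 on the HDAC9 siRNA array and 7.22 on the control array. The 6 probe sets carry 6 different accessions and spanned 0.93 log2 units, against a median span of 0.62 over the 1027 genes with 4 or more (quartiles 0.41 and 0.90). The transcript forms they read were not analysed here.

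Klf9, a factor induced by glucocorticoid and thyroid hormone, had 3 probe sets higher and 3 lower. The brightest, 1456341_a_at, read 12.24 on the HDAC9 siRNA array and 12.18 on the control array, and 1428288_at read 11.98 and 11.82. The third, 1428289_at, read 10.70 on the HDAC9 siRNA array and 10.76 on the control array. These bright probe sets stayed between -0.06 and 0.16. The other 3 above background were dimmer and ran from -0.36 for 1422264_s_at (8.10 on the HDAC9 siRNA array, 8.45 on the control array) to 0.20 for 1436952_at (8.39 and 8.18), with 1436763_a_at at 8.49 and 8.70. No direction can be given for Klf9 from them.

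Klf10, an early gene of the TGF-beta response, had 1 probe set and the lowest gene-level difference of the 8. Probe set 1416029_at read 9.72 on the HDAC9 siRNA array and 10.08 on the control array, a difference of -0.36 (1.28-fold lower) at percentile 8.49 of all genes. No second probe set was there to set beside it.

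Klf13, a factor that regulates the chemokine gene Ccl5 in T cells, depended on the probe set. The brightest, 1436316_at, read 9.63 on the HDAC9 siRNA array and 9.60 on the control array, a difference of 0.03 that turned to -0.0006, -0.0008 and -0.004 after centring, quantile normalization and loess. Probe set 1432543_a_at read 9.55 on the HDAC9 siRNA array and 9.16 on the control array, a difference of 0.39. The third, 1456030_at, was above background on the HDAC9 siRNA array alone, at 6.73, with 5.73 on the control array, and was at least 1.31-fold higher. The median over the 3 probe sets was 0.39, at percentile 84.8 of gene medians computed the same way.

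**Figure D3:**
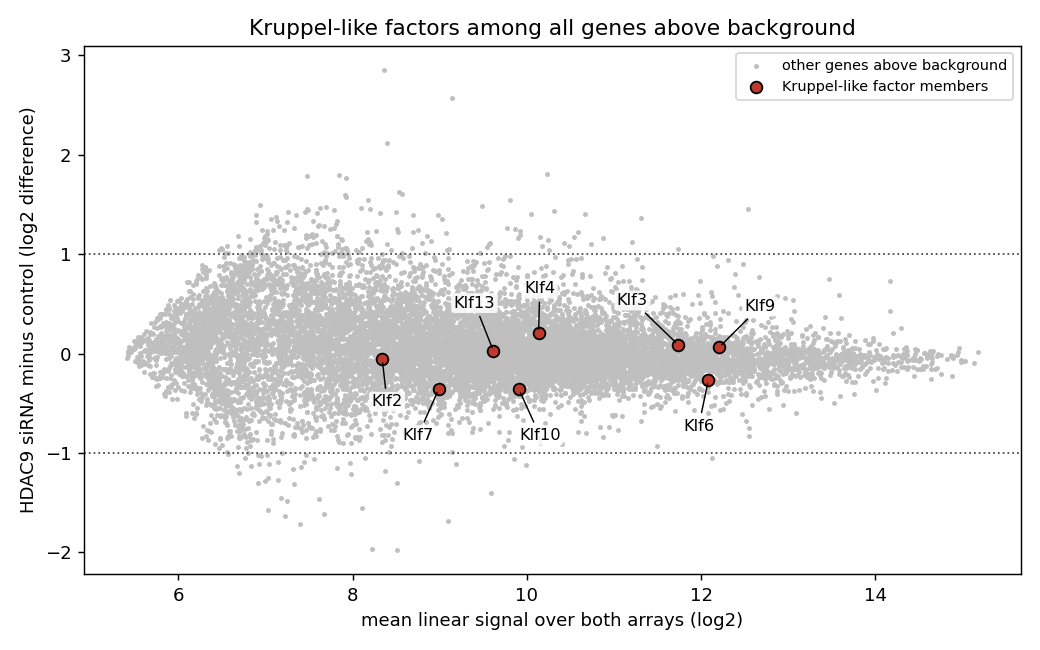
Log2 difference (HDAC9 siRNA minus control, y axis) against the log2 of the mean linear signal over both arrays (x axis) for the 12090 genes above background, each by its brightest probe set; the 8 KLF genes are red and labelled, and dotted lines mark 2-fold. The KLF genes lie between -0.36 and 0.21, within the cloud of other genes.

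By the brightest probe sets, the activators ran from -0.36 to 0.21 and the Sin3A-binding factors from -0.36 to 0.06. Among the latter, Klf9 had no direction and Klf13 depended on the probe set, so no direction is given for that subgroup. By the distance between log2 signals over the 2 arrays, the genes closest to Klf4 were Ccdc91, Rdh13 and Wdr37 (0.0077 to 0.019), and those closest to Klf10 were Mmut, Clec5a and Washc4 (0.020 to 0.032). This distance sets signals of different probe sets side by side, so it reflects the probes as well as the genes.

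Fewer of the family's remaining genes were detected, but the members were chosen with earlier results of these data known, so this contrast is not informative. Of the 8 other Klf genes measured, by the brightest probe set of each, 2 were above background on both arrays, 3 on 1 array and 3 on neither. Klf16 read 8.32 on the HDAC9 siRNA array and 7.93 on the control array (0.39), and Klf11 read 7.74 and 7.72. Together with the related SP factors, 10 of 15 measured genes were above background, 6 higher and 4 lower, with a median of 0.07 and 0 past 2-fold. Sp1 and Sp3, the broadly expressed members, were at 0.12 and -0.16, but the 3 probe sets of Sp1 disagreed in sign. Sp4, below background on the control array (7.33 on the HDAC9 siRNA array, 6.22 on the control array), was at least 1.99-fold higher. Klf5 (0.45) and Klf1 (-0.37), each above background on 1 array by the probe set used, were bounds too. The other Klf5 probe set above background, 1451021_a_at, was above it on both arrays (6.43 on the HDAC9 siRNA array, 6.52 on the control array) and differed by -0.09.

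Coregulators of KLF proteins were also close to level. Of 11 genes, 10 were above background, 6 were higher and 4 lower, 0 passed 2-fold, and the median was 0.06, or -0.02 when probe sets named _s_at, _x_at or _a_at were dropped. The acetyltransferase genes Ep300 and Crebbp, partners of the activator subgroup, were at 0.43 each by their brightest probe sets. The 3 probe sets of Crebbp ran from 0.18 to 0.43. Kat2b, another acetyltransferase gene of the list, was at -0.09, with both probe sets lower. Ep300 read 10.65 on the HDAC9 siRNA array and 10.22 on the control array. Sin3a, the corepressor of KLF9, KLF10 and KLF13, was at 0.38, although 1 of its 3 probe sets was lower. Hdac2 was at -0.40, with both probe sets lower, and Ctbp1 and Ctbp2, the corepressors of KLF3, were at 0.10 and 0.13, but the second probe set of Ctbp2 was at -0.19.

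In the ERK5 to MEF2 cascade, which induces Klf2 and Klf4 in endothelial cells, 10 of 11 genes were above background, with 4 higher, 6 lower, 0 past 2-fold and a median of -0.07. Mapk7, which encodes ERK5, was at 0.48 and its activating kinase gene Map2k5 at 0.42, with 1 of 4 Map2k5 probe sets lower. The MEF2 genes differed in direction. Mef2c was lower by all 5 of its probe sets, the least by -0.41 and 1 past 2-fold, and Mef2a by all 6 (-1.16 to -0.18), while Mef2d was higher by all 3 (0.22 to 1.61). Beside these, Klf2 was at -0.06 and Klf4 at 0.21, and a link to the MEF2 genes was not tested. The 3 ubiquitin ligase genes reported to act on KLF proteins were at 0.15 (Fbxw7), 0.02 (Smurf1) and 0.02 (Wwp1) by their brightest probe sets. The second probe set of Smurf1 was at 0.76, and the 3 of Wwp1 ran from -0.33 to 0.06.

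**Figure D4:**
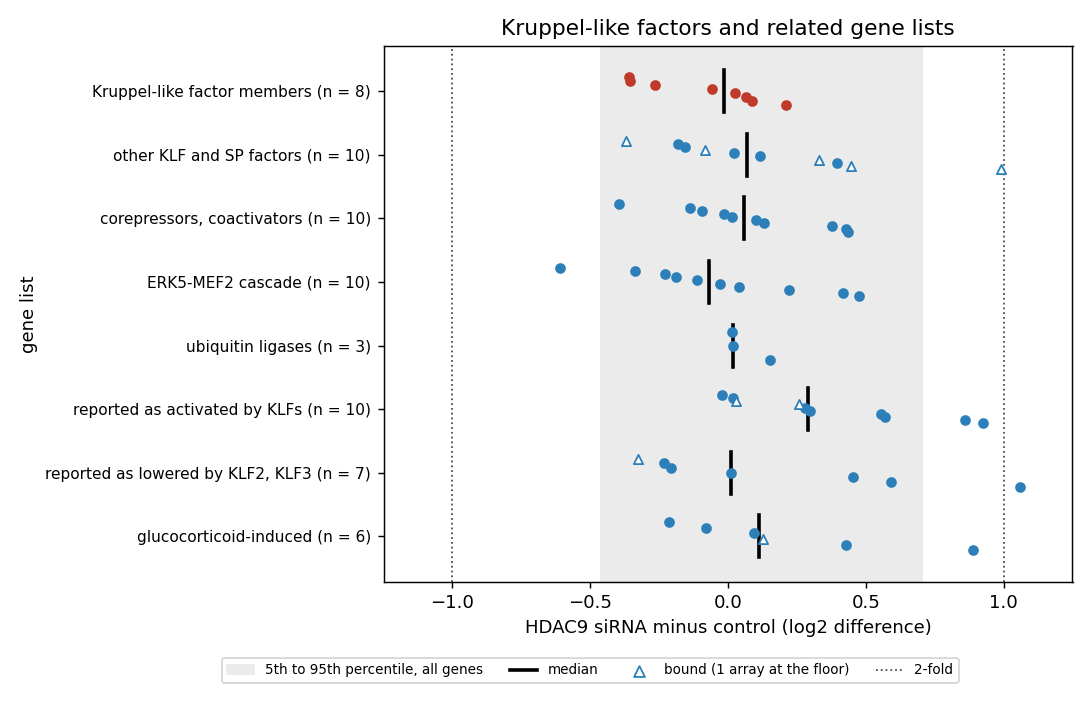
Log2 difference (HDAC9 siRNA minus control, x axis) of each gene above background in the KLF members and in 7 related lists (y axis); open triangles are bounds, black bars are list medians, the band spans the 5th to 95th percentile of all genes and dotted lines mark 2-fold. The 8 KLF genes lie within the band, and Il6 is the point past 2-fold.

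Genes reported as activated by KLF factors lay mostly on the higher side, with 0 past 2-fold. All 10 measured were above background, and 9 were higher (54.1% of all genes were) and 1 lower. The median was 0.29, against 0.03 over all genes, and it moved to 0.43 with either other floor or with a pseudocount. The largest were Tgfb1 (9.96 on the HDAC9 siRNA array, 9.03 on the control array), the gut-homing integrin gene Itgb7 (8.69 and 7.83), the anticoagulant receptor gene Thbd (11.30 and 10.74) and Arg1, the arginase of alternative activation (13.21 and 12.66). The second probe set of Tgfb1 was lower (-0.19). Values of Nos3 (0.03) and Retnla (0.26) were bounds. The sphingosine-1-phosphate receptor gene S1pr1, a well known KLF2 target in T cells, was at 0.02, beside -0.06 for Klf2.

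Inflammatory genes reported as lowered by KLF2 or KLF3 were mixed. Of 8 measured, 7 were above background, 4 higher and 3 lower, with a median of 0.01. At least 2-fold higher was 1 gene, Il6 (9.11 on the HDAC9 siRNA array, 8.05 on the control array), against 1.44% of all genes, a call lost after quantile normalization and after loess. Ccl2 was at 0.59, Ptgs2 at 0.45, with its second probe set lower, and Il1b at -0.33 as a bound. Lgals3, which KLF3 represses in mice, read 14.65 on the HDAC9 siRNA array and 14.86 on the control array.

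Other genes that glucocorticoids induce, as they do Klf9, showed no common direction. Of 6, all above background, 4 were higher and 2 lower, 0 passed 2-fold, and the median was 0.11. Fkbp5, which encodes a cochaperone of the glucocorticoid receptor, was at 0.89, with both probe sets higher (9.21 on the HDAC9 siRNA array and 8.33 on the control array by the brightest), and the clock gene Per1 was at 0.43. Tsc22d3, also called Gilz, was at -0.21 with 2 of its 4 probe sets higher, and Zbtb16 was at 0.13 as a bound. Klf9 itself was at 0.06.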

How the data were processed

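The deposited table holds the authors' log2 signals, 1 per probe set and array. The submitters' processing notes name MAS5, which condenses the probes of a set into 1 signal; no version, settings or detection calls were stated there. RNA was labelled as biotin cRNA, per the labels' protocols. The authors' scaling was kept.

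Probe sets were named from the platform's 2016 annotation: 34945 had 1 gene symbol, 932 several and 9160 none, and the last 2 kinds were left out. The background floor, the brightest-probe-set rule and the counts were computed in Python 3.11.15 with pandas 2.3.3. The 2-fold call was tested on simulated data with 1 probe set per gene and planted shifts past 2-fold, larger than any KLF difference. That simulation did not test differences of the size seen here, the brightest-probe-set rule or the choice of floor. It held no variation between cultures. Loess used statsmodels 0.14.6 with a span of 0.3. The number of arrays limits the precision.

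Alternatives were centring, quantile normalization, loess, a floor at the 75th percentile or the 99th, a pseudocount of 1 in place of a floor, gene medians over probe sets, dropping _s_at, _x_at and _a_at probe sets, and thresholds of 1.5-fold and 3-fold. The members, lists and tests were chosen with earlier results of these data known. All probe sets of the members were named. From each list came up to 4 genes with the largest differences and all past 2-fold. Hdac9, S1pr1, Sp1, Sp3, Ctbp1, Ctbp2, Kat2b, Klf11, Lgals3, Nos3, Retnla, Mef2d and Klf12 were named after their values were seen, as were the markers. The genes most like Klf4 and Klf10 were the 3 with the smallest distance between log2 signals.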

Additional observations from a re-analysis of the deposited data

How the results depend on the processing

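No paired analysis was possible because each group had 1 array. Under every alternative and threshold tried, 0 of the 8 KLF genes passed the fold. Of 64 gene values under 8 alternatives, 63 stayed within the probe-set scatter and 1 moved, Klf13, whose 3 probe sets had a median of 0.39; the 2 that the brightest one leaves out make the change. Klf13 was also the gene whose sign turned, under 3 scalings. The KLF median ran from -0.08 to -0.02. Of 112 list values, 95 stayed close and 17 moved, most of them with the floor: without a floor, 4 other KLF and SP genes passed 2-fold, at signals near or below background. The others were all in the inflammatory list. The Il6 call was lost under quantile normalization and loess. The median of that list moved to 0.23 when _s_at, _x_at and _a_at probe sets were dropped, which left 6 genes, without Il1b. Values of dim genes are limited by the floor.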

Other observations

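Klf12, a CtBP-binding relative of Klf3, had 5 probe sets, and 1 of them was above background on an array. This one, 1439846_at, read 3.09 on the HDAC9 siRNA array and 6.42 on the control array, which is at least 1.06-fold lower. The other 4 were below the floor of 6.34 on both arrays, so no difference is given for them. Their signals were 1.53 on the HDAC9 siRNA array and 5.43 on the control array for 1422227_at, 1.24 and 5.32 for 1441040_at, 5.49 and 4.29 for 1439847_s_at, and 1.93 and 0 for 1455521_at. Among the members, Klf3 probe set 1458487_at read 4.77 on the HDAC9 siRNA array and 3.72 on the control array, and Klf9 probe set 1452723_at read 5.65 and 4.97, also below the floor on both.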
